A study of Gallus gallus with 14 samples.

Results

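A total of 9977 long non-coding RNAs (lncRNAs) were profiled in the uterovaginal junction (UVJ) of egg-laying hens. Of these, 851 were known lncRNAs that every hen expressed, at a moderate level in at least 1 hen. They were chosen by 3 conditions, namely an entry in NONCODE (a catalogue of non-coding transcripts), a position outside chromosomes 16, Z and W, and a level no lower than 1 FPKM in each of 14 hens but under 10 FPKM in 1 hen or more. FPKM counts the fragments of a transcript and scales them by its length and by the size of the library. The 851 were 12.1% of the 7040 known lncRNAs outside chromosomes 16, Z and W, of which 154 reached 10 FPKM in every hen and 6035 fell under 1 FPKM in at least 1 hen. Since FPKM values chose these lncRNAs, their level and their constancy are given as a description without a test. Differences between groups of hens were tested, as the choice used no label of group or prefix. The floor of 1 FPKM in every hen does, however, limit how far 2 groups can lie apart. The limit of 10 FPKM can also admit a lncRNA only through the group in which it is low. NONGGAT012271.1, for example, was under 10 FPKM in JF64 alone.

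The UVJ is the narrow band between uterus and vagina whose sperm storage tubules hold sperm after mating or insemination and release it over the following days, so that a hen lays fertile eggs for a time. A lncRNA is a transcript of more than 200 bases with no protein product. Some lncRNAs act on transcription or chromatin near their own gene and others on RNA or protein elsewhere, and the function of most catalogued chicken lncRNAs is unknown.

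Total RNA of 1 hen went into each library. The 7 long-DF hens kept laying fertile eggs for a long time after a single artificial insemination, and the 7 short-DF hens for a short time (DF, duration of fertility). All were caged egg-type hens of 1 farm on the same light and feed, and no gene was altered in either group. Each group held 4 hens whose number has the prefix JH (JH14, JH25, JH95 and JH104 among long-DF hens, JH49, JH68, JH109 and JH130 among short-DF hens) and 3 whose number has the prefix JF (JF25, JF61 and JF64 among long-DF hens, JF21, JF40 and JF56 among short-DF hens). The meaning of JH and JF is not given in the sources used here. The tables used here hold lncRNAs alone, so the tissue could not be checked on marker genes, and fewer cells of a type and less RNA per cell cannot be told apart.

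Between 213304 and 281892 fragments per hen were counted on lncRNAs, of which 16.3% to 17.8% lay on the 851. A median of 24 fragments stood behind a lncRNA in a hen, and 132 of the 851 had a median below 10. The library total behind the FPKM averaged 6665193 ± 564980 in JH hens and 7619510 ± 624583 in JF hens (SD, n = 8 and n = 6). JH hens were below JF hens by a two-sided exact permutation test over 3003 splits (p = 0.0117, adjusted over 4 such tests 0.0466). The fragments on lncRNAs averaged 230915 ± 23687 in JH hens and 239694 ± 18621 in JF hens (SD, n = 8 and n = 6; exact permutation p = 0.465). Between long-DF and short-DF hens neither total differed beyond the spread (exact permutation p = 0.211 for the library total and 0.791 for lncRNA fragments, n = 7 each). The part that the difference in library total has in the comparison of JH with JF hens was not tested, but the scale it enters is varied below.

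The choice itself bounded the level of the 851, from below in every hen and from above in at least 1. Their median FPKM over the hens lay between 1.31 and 36.0, with a median of 4.57. There were 48 below 2 FPKM, 412 from 2 to under 5, 264 from 5 to under 10 and 127 at 10 or more. A total of 553 stayed below 10 FPKM in every hen, and the other 298 passed 10 FPKM in some hens. The highest median was that of NONGGAT006353.2 (chr3:72319564-72328375 on Galgal4, 530 nt), with 3.97 FPKM in its lowest hen, 36.0 in the median and 87.6 in its highest. NONGGAT012271.1 (chr1:71527657-71530719, 486 nt) followed with 9.94, 34.02 and 56.7 FPKM, and NONGGAT008076.2 (chr6:10726860-10728246, 423 nt) with 3.98, 30.3 and 58.1 FPKM. Both NONGGAT006353.2 and NONGGAT008076.2 entered through hen JH25 alone, whose values of 3.97 and 3.98 FPKM were the only ones under 10. The lowest medians were those of NONGGAT001955.2 (1.31 FPKM), NONGGAT008984.2 (1.35 FPKM) and NONGGAT003455.2 (1.40 FPKM). NONGGAT008984.2, of 226 nt, rested on a mean of only 2.36 fragments per hen.

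Both limits cut through a continuous range. Just above the floor lay NONGGAT004659.2, NONGGAT006069.2 and NONGGAT014529.1, whose lowest hens had 1.004, 1.005 and 1.005 FPKM. Just below it lay NONGGAT015657.1, NONGGAT014353.1 and NONGGAT007443.2, with 0.997, 0.993 and 0.993 FPKM. At the upper limit the lowest hen had 9.94 FPKM for NONGGAT012271.1, 9.89 for NONGGAT008029.2 and 9.83 for NONGGAT000341.2. On its other side the lowest hen had 10.007 FPKM for NONGGAT000584.2, 10.02 for NONGGAT005521.2 and 10.2 for NONGGAT001860.2. NONGGAT004659.2 shows how little can decide: it had 1.004 FPKM in JF56 and between 2.24 and 4.59 FPKM in the other 13 hens.

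The 851 transcripts were 204 to 12170 nt long, with a median of 709 nt and quartiles of 428 and 1332 nt. The median was 775 nt in the 154 abundant ones and 643 nt in the 6035 that fell below the floor. The median locus on the genome spanned 2547 bases. For 20 of the 851, or 2.35%, the locus was exactly as long as the transcript, so that it held no intron, against 3.90% of the abundant known lncRNAs and 0.944% of those below the floor. The share of known lncRNAs that belonged to the 851 was 11.2% at under 500 nt, 11.2% at 500 to under 1000 nt, 12.8% at 1000 to under 2000 nt and 17.6% at 2000 nt or more. At a given FPKM a short transcript has fewer fragments, so a low draw in a hen takes it under the floor more easily. The part of this in the shares was not tested. The shortest were NONGGAT008437.2 (chr7:9697386-9698102) and NONGGAT007182.2 (chr4:68314144-68330993), both of 204 nt, and ENSGALT00000035473 (chr23:2106499-2106703) of 205 nt, which had no intron. The longest was NONGGAT003350.2 (chr18:10669450-10682079) with 12170 nt, followed by NONGGAT005247.2 (chr24:2890596-2899820) with 8492 nt and NONGGAT005155.2 (chr23:2775968-2891960) with 7435 nt. NONGGAT003350.2 stood at 1.27 FPKM in JH104, its lowest hen, 1.67 in the median and 2.30 in JH68, its highest.

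By source, 366 entries came from an earlier release of NONCODE, 366 and 98 from a pair of published sets, 11 from RefSeq and 10 from Ensembl. The entries of the smaller published set were shortest, with a median of 417 nt, against 743 nt for those of NONCODE itself and 720 nt for those of the larger published set. Of the entries not from NONCODE itself, the 10 with the highest median level all came from the published sets. The first was NONGGAT012271.1, followed by NONGGAT011255.2 with a median of 23.2 FPKM. NONGGAT007298.2 (chr4:85198662-85201034, 2139 nt) had 6.91 FPKM in its lowest hen, 22.4 in the median and 35.8 in its highest. NONGGAT002310.2 (chr13:1764391-1765674, 479 nt) had 9.14, 18.3 and 27.6 FPKM, NONGGAT008204.2 (chr6:22075471-22075998, 335 nt) 5.18, 17.5 and 43.6 FPKM, and NONGGAT005294.2 (chr24:5429587-5431732, 882 nt) 8.22, 16.4 and 28.7 FPKM. The rest, NONGGAT005489.2, NONGGAT005808.2, NONGGAT000116.2 and NONGGAT008109.2, had medians of 16.7, 16.3, 15.5 and 15.1 FPKM.

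All 11 RefSeq entries were found by accession in the gene table of RefSeq used here, and 9 of these are non-coding variants of genes that also encode a protein. Reads from the coding transcripts of such a gene could not be told from reads of the non-coding one, so their levels are uncertain. These 11 were picked out by source after their values were seen. Among them were non-coding transcripts of COMMD4, of a family with roles in copper handling and NF-kB signalling in mammals (NONGGAT013076.1, 14.8 FPKM in the median hen), and of E2F6, a repressor of the E2F family of cell-cycle transcription factors (NONGGAT015129.1, 13.4 FPKM). The entry of NUDT7, a peroxisomal enzyme that splits coenzyme A, had 7.95 FPKM, and that of BLOC1S2, a subunit of a complex that forms lysosome-related organelles, 7.68 FPKM. RPL12 (a protein of the large ribosomal subunit, 7.09 FPKM), GSTZ1 (an enzyme of tyrosine breakdown, 7.05 FPKM), CIB1 (a calcium- and integrin-binding protein, 6.86 FPKM), TYW5 (a tRNA-modifying hydroxylase, 6.21 FPKM) and FUNDC1 (a receptor for the removal of mitochondria, 3.77 FPKM) gave the rest of the protein-coding genes. The other 2 entries were a transcribed pseudogene named IL17D (3.30 FPKM) and the lncRNA gene LOC420411 (10.02 FPKM). None of the 11 passed the test in any of the comparisons below.

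Chromosomes 1 to 5 held 356 of the 851, or 41.8%, while they held 50.6% of all known lncRNAs outside chromosomes 16, Z and W. Chromosomes 6 to 10 held 160, and chromosomes 11 to 33 held 334, or 39.2%, against 29.9% of the known ones. Put the other way, 9.99% of the known lncRNAs on chromosomes 1 to 5, 11.7% on chromosomes 6 to 10 and 15.8% on chromosomes 11 to 33 belonged to the 851. Among chromosomes with at least 50 known lncRNAs, the share was highest on chromosome 24 (20 of 75, 26.7%) and chromosome 23 (24 of 96, 25%) and lowest on chromosome 2 (67 of 737, 9.09%). On chromosome 25, with few known lncRNAs, 12 of 32 belonged. The median length of the 851 was 737 nt on chromosomes 1 to 5 and 678 nt on chromosomes 11 to 33. These shares are a description, as neighbouring transcripts often overlap.

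**Figure D1:**
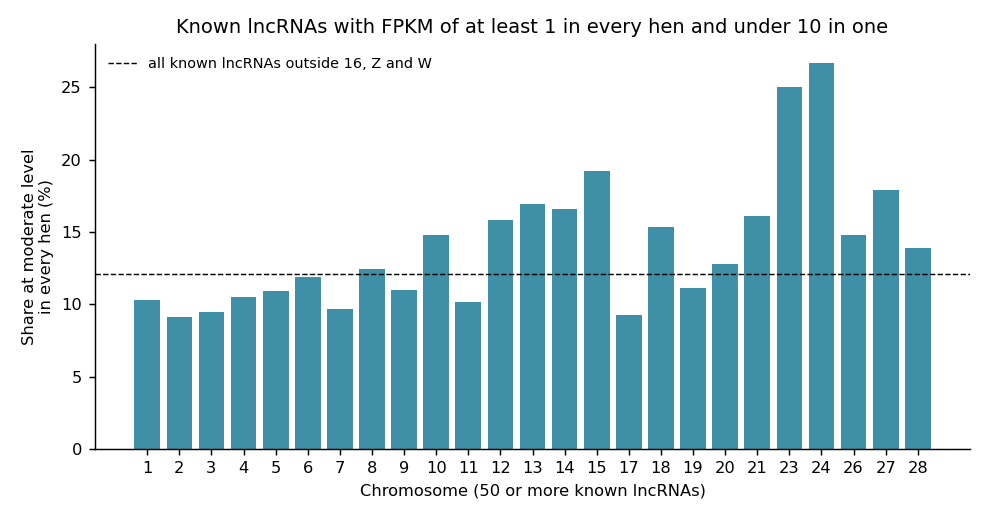
The bars give, for each chromosome with 50 or more known lncRNAs, the percentage of its known lncRNAs that had at least 1 FPKM in every hen and under 10 in at least 1, and the dashed line marks the 12.1% of all known lncRNAs outside chromosomes 16, Z and W. Chromosomes 23 and 24 stand highest, at 25% and 26.7%, and chromosomes 1 to 5 all lie under the line.

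The 851 transcripts lay in 776 loci of overlapping transcripts. A total of 722 loci held 1 of them, 40 held 2, 8 held 3, 5 held 4 and 1 held 5. For 265 of the 851, another known lncRNA outside the set lay in the same locus, and 13 shared a locus with an unknown lncRNA. How the counting divided fragments between overlapping transcripts is not given in the sources used here, so the levels of such transcripts are uncertain, and 528 of the 851 were alone in their locus. The locus with 5 lay on chromosome 10 between 18750209 and 18769839, and the lower coordinates of its transcripts lay within 1 kb of each other. Over the hens NONGGAT001766.2 (673 nt) had a median of 13.03 FPKM, NONGGAT001767.2 (1585 nt) 5.12, NONGGAT001770.2 (1065 nt) 4.82, NONGGAT001769.2 (1211 nt) 2.50 and NONGGAT001771.2 (2706 nt) 2.22 FPKM. Their highest hens differed in part. NONGGAT001769.2 and NONGGAT001771.2 were highest in JH25, with 7.88 and 6.12 FPKM, NONGGAT001766.2 in JH49 with 28.7 FPKM, NONGGAT001767.2 in JH14 with 11.6 FPKM and NONGGAT001770.2 in JH104 with 7.13 FPKM.

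Constancy between hens was measured by the coefficient of variation (CV), the SD over the 14 hens as a percentage of the mean. The median CV of FPKM over the 851 was 28.2%, with 90% of them between 15.2% and 53.9%. The highest hen exceeded the lowest by a median of 2.69 times. It was under 2 times the lowest for 149 of the 851, at least 5 times for 101 and at least 10 times for 20. Counting alone sets a limit, as the spread expected from the number of fragments had a median of 19.9%. On CPM, counts scaled by library size with TMM (the trimmed mean of M values, a factor per library), the median CV was 27.1%, and for 237 of the 851 it was no larger than expected from counting. The CV was 30.5% in the median for transcripts of under 500 nt, 29.0% at 500 to under 1000 nt, 27.5% at 1000 to under 2000 nt and 21.0% at 2000 nt or more, while the mean number of fragments per hen had a median of 12, 21.6, 48.4 and 114.5 in these classes. With counting taken off, the order was another, with 4.62%, 16.2%, 20.4% and 17.3% in the same classes. The floor of 1 FPKM in every hen shuts out transcripts with a low draw in any hen, which narrows the spread where fragments are few. How much of the 237, and of the low value in the shortest class, comes from this floor was not tested. The short transcripts were thus less steady in FPKM, and their fragments were fewest.

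**Figure D2:**
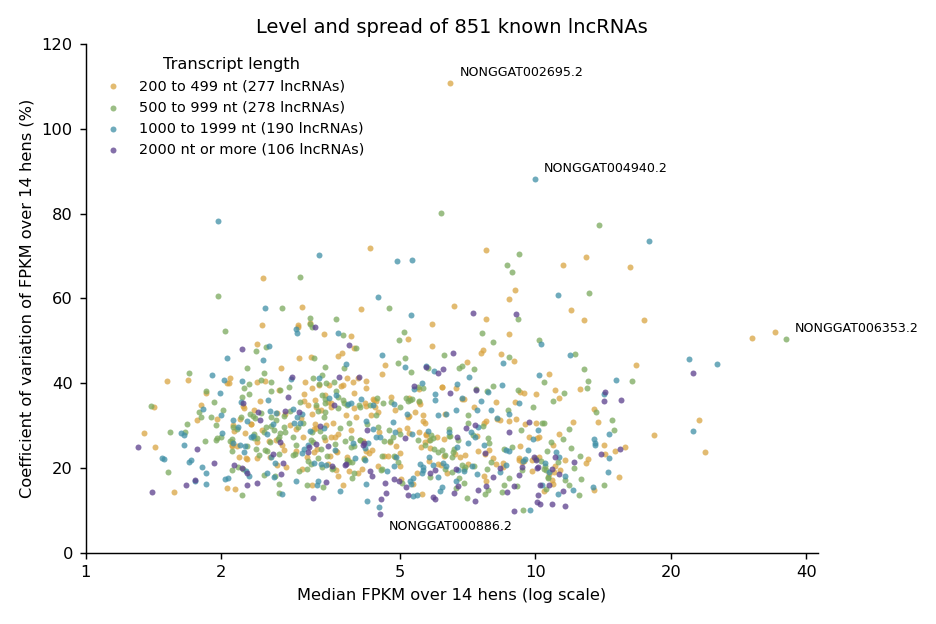
Each point is 1 of the 851 lncRNAs, with its median FPKM over 14 hens on a log axis and its coefficient of variation over the hens in percent, coloured by transcript length. Most points lie between 15.2% and 53.9%, NONGGAT002695.2 lies highest at 111%, and NONGGAT000886.2 lowest at 9.21%.

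The steadiest transcript was NONGGAT000886.2 (chr1:104412671-104416548, 2559 nt), with a CV of 9.21% and 3.70 to 5.11 FPKM over all 14 hens. NONGGAT000640.2 (chr1:78666243-78671010, 4266 nt) lay between 7.81 and 11.2 FPKM with a CV of 9.83%. NONGGAT006750.2 (chr4:14160030-14161544) lay between 7.94 and 11.1 FPKM, NONGGAT005320.2 (chr25:463852-465665) between 7.89 and 11.02 FPKM and NONGGAT004833.2 (chr21:318241-321872) between 3.59 and 5.39 FPKM, with CVs of 10.04%, 10.1% and 10.8%. In none of these 5 did a hen reach 1.6 times another. NONGGAT005320.2 had no intron, its locus being exactly as long as its 1814 nt.

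At the other end stood NONGGAT002695.2 (chr14:12747252-12748195, 266 nt), with a CV of 111%. It had 40.1 FPKM in JH25, 10.3 in JH14, the next highest, and 1.91 in JH49, the lowest, on 3 to 76 fragments. A single hen thus made most of its spread. NONGGAT004940.2 (chr21:4930123-4932268, 1433 nt, CV 88.1%) ran instead over the whole range of hens. In long-DF hens it had 10.5, 17.4, 3.03, 4.70, 2.88, 1.37 and 21.7 FPKM in JH14, JH25, JH95, JH104, JF25, JF61 and JF64. In short-DF hens it had 21.1, 32.997, 41.1, 5.79, 9.49, 20.9 and 2.95 FPKM in JH49, JH68, JH109, JH130, JF21, JF40 and JF56. High and low hens occurred in both groups and both prefixes. NONGGAT004936.2 (chr21:4838763-4840088, 918 nt, CV 77.3%), which lies less than 100 kb away, was highest in other hens, with 53.5 FPKM in JH25 and 36.9 in JH95, and lowest in JF25 with 4.50 FPKM. NONGGAT005590.2 (chr28:1000895-1001937, CV 80.1%) was highest in JH49 with 24.4 FPKM and lowest in JH109 with 2.43 FPKM. NONGGAT005819.2 (chr3:9866132-9868219, CV 78.3%) had 5.30 to 9.44 FPKM in JH14, JH104, JH49, JH109 and JF40 and 1.15 to 2.15 FPKM in the other 9 hens, with none between.

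Of the 20 lncRNAs whose highest hen had at least 10 times the lowest, 11 were lowest in JH25, and without JH25 only 8 of the 851 reached that ratio. Among the 11, however, 6 lay in the stretch of chromosome 24 described below, whose lncRNAs followed each other over the hens. The 11 are therefore not separate observations. JH25 was also the hen whose levels followed those of the others least, with a median Spearman rho of 0.715 over the 851, against 0.744 to 0.799 for the other hens. A single low hen marked NONGGAT011255.2 (chr1:193862362-193864375, 349 nt). It had 1.64 FPKM in JF21, on 4 fragments, and between 14.1 and 28.8 FPKM in the other 13 hens. NONGGAT006353.2 likewise had 3.97 FPKM in JH25 and at least 18.3 in the other hens. NONGGAT000116.2 (chr1:15045033-15052695, 6417 nt) had 3.90 FPKM in JF25, 4.20 in JF56 and 7.32 in JF64, and between 12.3 and 17.9 FPKM in the other 11 hens.

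Within groups the spread was similar, with a median CV of 27.6% in long-DF hens and 26.7% in short-DF hens (n = 7 each). It was 27.1% in JH hens and 21.3% in JF hens (n = 8 and n = 6), and for 598 of the 851 the CV was lower in JF hens. On CPM the medians were 25.5% in JH hens and 21.1% in JF hens, with 578 lower in JF hens. Such counts over all lncRNAs tested are not given here, so the difference is not shown to be particular to the 851. Depth was a little higher in JF hens, as the mean number of fragments per lncRNA had a median of 23.6 in JH hens and 25.7 in JF hens. With counting taken off, 12.7% was left in JH hens and 3.72% in JF hens, values that the floor of 1 FPKM can also lower. The difference in spread between the prefixes was not tested.

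The levels followed the prefix of the hen more than its duration of fertility. Of the variance of a lncRNA over the hens (log2 of CPM plus 0.5), the difference between JH and JF hens took a median of 10.8% over the 851, and that between long-DF and short-DF hens 3.47%. Over all 6887 lncRNAs tested these medians were 9.19% and 3.42%. Pairs of hens with the same prefix had a median rho of 0.810 over the 851 (43 pairs), and pairs with different prefixes 0.758 (48 pairs). Pairs of the same DF group had 0.768 and pairs of different groups 0.782.

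Whether these lncRNAs differed with the duration of fertility was tested with edgeR's quasi-likelihood test on counts, fitted over the 6887 lncRNAs that reached 0.1 FPKM in 7 hens or more, and adjusted over all of them by the Benjamini-Hochberg method. All 851 passed that filter. A lncRNA was called at an adjusted p of at most 0.05. Between long-DF and short-DF hens, none of the 851 was called (0% of all lncRNAs tested were), and the smallest adjusted p was 0.995. The authors, also with edgeR, reported lncRNAs that differed between these groups, known ones among them. Their calls also asked for a p of at most 0.01 and a log2 fold change of at least 2. Whether any of the lncRNAs they called is among the 851 is not given here. The lncRNAs they checked by qPCR were unknown ones from their own assembly. In an independent set of samples the paper reports qPCR fold changes similar to those of sequencing, and it measured target genes as well. Why the results over all lncRNAs tested differ was not tested. At an unadjusted p under 0.05 there were 13 of the 851, or 1.53%, against 2.12% of all tested. DESeq2 called none either, here and in the 3 comparisons that follow on the duration of fertility. No lncRNA of the 851 had FPKM values that did not overlap between the groups, against 0.0436% of all tested. The log2 fold change, long-DF over short-DF, lay between -0.43 and 0.43 for 95% of the 851, with a median SE of 0.23.

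NONGGAT005587.2 (chr28:923169-925617, 1683 nt) had the smallest p. Long-DF hens had a lowest value of 2.15, a median of 3.10 and a highest of 4.78 FPKM, and short-DF hens 2.93, 5.14 and 6.65 FPKM. The groups overlapped, and the log2 fold change was -0.60 ± 0.20 (SE; unadjusted p = 0.00857 in edgeR, adjusted p = 0.995). NONGGAT002399.2 (chr13:9646864-9647462, 305 nt) had 4.27, 5.30 and 6.34 FPKM in long-DF hens and 5.68, 7.40 and 9.57 FPKM in short-DF hens (log2 fold change -0.54 ± 0.19). For NONGGAT007110.2 (chr4:57732547-57745698, 698 nt) the values were 2.999, 6.22 and 10.7 FPKM in long-DF hens and 8.22, 10.4 and 13.8 FPKM in short-DF hens (log2 fold change -0.71 ± 0.28). Of those that lay higher in long-DF hens, NONGGAT003040.2 (chr17:1555919-1558301, 608 nt), the RefSeq entry of RPL12, had the smallest p. It had 6.84, 7.505 and 12.9 FPKM in long-DF hens and 4.78, 5.80 and 8.24 FPKM in short-DF hens (log2 fold change 0.54 ± 0.20). NONGGAT001769.2 (chr10:18750228-18751839) had 1.55, 2.76 and 7.88 FPKM in long-DF hens and 1.95, 2.24 and 4.14 FPKM in short-DF hens. Only JH14, JH25 and JH95, all long-DF hens, were over 6 FPKM. NONGGAT002504.2 (chr14:220724-221928, 862 nt) had 2.28, 2.62 and 3.26 FPKM in long-DF hens and 1.47, 1.85 and 3.34 FPKM in short-DF hens, and the highest value of all was that of JH49, a short-DF hen. In all 6 the groups overlapped and the adjusted p was 0.995.

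**Figure D3:**
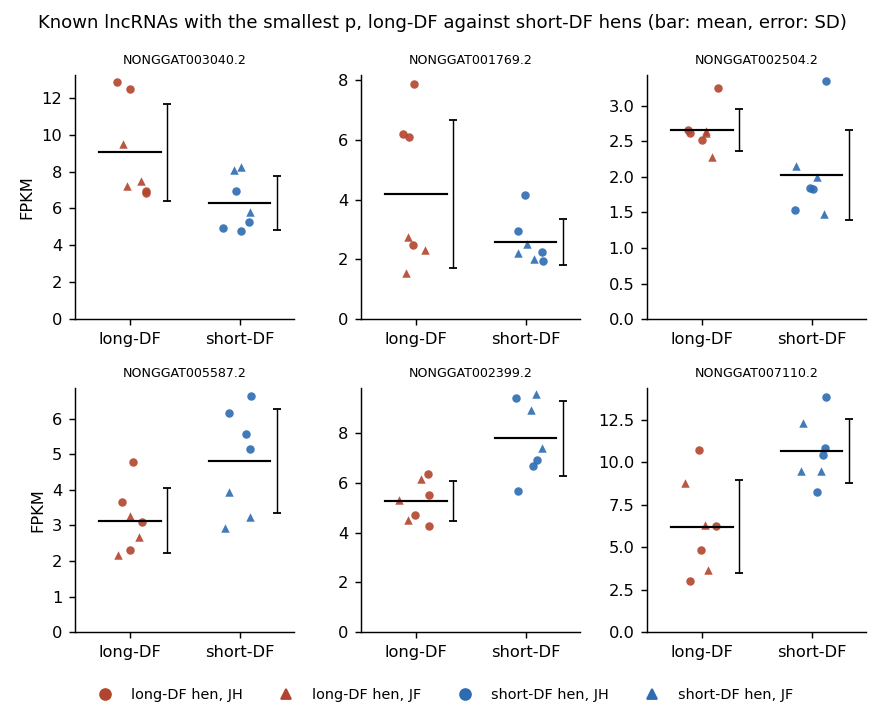
FPKM of the 6 lncRNAs with the smallest p between long-DF hens (left of each panel, red) and short-DF hens (right, blue), with circles for JH and triangles for JF hens. Bars are means and error bars SDs over 7 hens, and the groups overlap in every panel.

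Since the prefix is shared evenly between the groups, the comparison was repeated within it. In JH hens (4 against 4) none of the 851 was called, against 0.0145% of all tested, and 28 had an unadjusted p under 0.05, or 3.29% against 3.93%. NONGGAT005489.2 (chr27:1366560-1367226, 421 nt) came closest, with 20.7, 17.3, 16.5 and 11.9 FPKM in the long-DF hens and 32.2, 37.0, 26.5 and 24.2 FPKM in the short-DF hens. The 4 and 4 values did not overlap, but this lncRNA was picked for its small p, so the separation is a description. The log2 fold change was -0.84 ± 0.19 (SE; edgeR unadjusted p = 0.00207, adjusted p = 0.993). In JF hens the same lncRNA had 13.7, 17.0 and 10.8 FPKM in long-DF hens and 11.6, 14.8 and 9.39 FPKM in short-DF hens. NONGGAT005587.2 again lay lower in JH long-DF hens (4.78, 3.67, 3.10 and 2.30 FPKM) than in JH short-DF hens (6.65, 5.57, 5.14 and 6.16 FPKM), with a log2 fold change of -0.76 ± 0.21. NONGGAT002779.2 (chr15:4720625-4721162, 384 nt) had 2.10, 2.56, 3.01 and 1.49 FPKM in JH long-DF hens and 4.41, 3.78, 4.51 and 5.40 FPKM in JH short-DF hens. In the other direction lay NONGGAT003472.2 (chr19:5175236-5179400, 2175 nt), with 7.40, 12.0, 11.9 and 10.1 FPKM in JH long-DF hens and 4.99, 5.04, 6.95 and 6.96 FPKM in JH short-DF hens. NONGGAT005721.2 and NONGGAT002894.2 followed, with log2 fold changes of 0.86 ± 0.27 and 0.82 ± 0.28.

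In JF hens (3 against 3) none of the 851 was called, against 0.0581% of all tested, and 16 had an unadjusted p under 0.05, or 1.88% against 3.62%. NONGGAT008029.2 (chr6:7832882-7863863, 1126 nt) had the smallest p, with 9.89, 14.8 and 11.7 FPKM in JF long-DF hens and 25.3, 34.3 and 17.9 FPKM in JF short-DF hens (log2 fold change -0.98 ± 0.27, SE; edgeR unadjusted p = 0.00943, adjusted p = 0.993). In JH hens it had 51.1, 23.7, 40.4 and 31.3 FPKM in long-DF hens and 28.1, 25.2, 34.2 and 16.7 FPKM in short-DF hens. Its only value under 10 FPKM was that of JF25, a long-DF hen, through which it entered the set. NONGGAT000319.2 (chr1, 522 nt) and NONGGAT009171.2 (chr9, 1134 nt) also lay lower in JF long-DF hens, with log2 fold changes of -0.68 ± 0.20 and -0.99 ± 0.33. NONGGAT006774.2 (chr4, 2811 nt), NONGGAT007975.2 (chr6, 826 nt) and NONGGAT013512.1 (chr15, 996 nt) lay higher in JF long-DF hens, with log2 fold changes of 0.52 ± 0.18, 0.69 ± 0.25 and 0.65 ± 0.25. NONGGAT006774.2 was under 10 FPKM only in JF21 and JF56, both short-DF hens, so it entered the set through the lower group. NONGGAT013512.1, for example, had 3.01, 2.55 and 2.69 FPKM in JF long-DF hens and 2.01, 1.60 and 1.98 FPKM in JF short-DF hens.

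The difference between the prefixes in the long-DF effect was tested by an interaction term over all 14 hens. None of the 851 was called, as of all tested, where the share was 0%. By unadjusted p under 0.05 there were 29 of the 851, or 3.41% against 4.47%. The smallest p was that of NONGGAT005721.2 (chr3:2433769-2438719, 478 nt). It had 16.5, 8.22, 11.2 and 11.7 FPKM in JH long-DF hens and 8.86, 5.53, 6.58 and 5.67 FPKM in JH short-DF hens, but 11.8, 7.25 and 7.58 FPKM in JF long-DF hens and 13.5, 17.2 and 14.5 FPKM in JF short-DF hens. The effect in JH less that in JF was 1.51 ± 0.38 on the log2 scale (SE; edgeR unadjusted p = 0.00147, adjusted p = 0.836). NONGGAT005489.2 had -1.17 ± 0.30 with the same adjusted p. It was under 10 FPKM in JF56 alone, a short-DF hen, so it entered the set through the lower group of JF hens. NONGGAT008029.2 (1.48 ± 0.42), NONGGAT010585.2 (1.17 ± 0.40), NONGGAT000991.2 (-1.43 ± 0.45) and NONGGAT002604.2 (-1.15 ± 0.38) followed, with an adjusted p of 0.9999. An effect that lay in 1 prefix was thus not shown to be missing from the other.

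JH hens differed from JF hens in 69 of the 851 lncRNAs, with the duration of fertility as a covariate. That is 8.11% of them, against 6.93% of all 6887 tested. Of these 30 were higher in JH hens (3.53%, against 3.33% of all tested) and 39 were lower (4.58%, against 3.60%). On the library totals behind the FPKM as scale, which moved the median log2 fold change of all tested lncRNAs to 0.14, against 0.02 with TMM, 65 were called, 43 higher and 22 lower in JH hens. The balance of directions therefore hung on the scale, although each of the 69 kept its sign. At an unadjusted p under 0.05 there were 179, or 21.0%, against 19.5%. With the thresholds of the study, which also ask for a p of at most 0.01 and a log2 fold change of at least 2 in size, none of the 851 was called, against 2.76% of all tested. Since the choice of the 851 by level limits changes of that size, these shares cannot be compared as a result. The called ones changed by 0.34 to 1.86 on the log2 scale in size, with a median of 0.91, and 27 changed by 1 or more. FPKM values did not overlap between JH and JF hens for 36 of the 851, or 4.23%, against 3.53% of all tested, and 31 of these 36 were among the 69. Leaving out JF25, JF61, JF64, JF21 or JF56 gave 42, 43, 45, 42 and 44 called, or 4.94%, 5.05%, 5.29%, 4.94% and 5.17% of the 851, against 5.39%, 5.17%, 5.02%, 5.26% and 5.01% of all tested. The share called among the 851 was thus near that among all lncRNAs tested. Some of the 69 passed the limit of 10 FPKM only through the prefix in which they were low, and their number is not given here. Besides those named below, NONGGAT007298.2 and NONGGAT005294.2 were under 10 FPKM in JF hens only, and NONGGAT008076.2 in JH25 only. The shares called are therefore a description.

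Higher in JH hens was NONGGAT012271.1 (chr1:71527657-71530719, 486 nt). JH hens had a lowest value of 31.8, a median of 46.5 and a highest of 56.7 FPKM, and JF hens 9.94, 15.97 and 17.0 FPKM. No JF hen came near the lowest JH hen, and the log2 fold change was 1.48 ± 0.17 (SE; edgeR adjusted p = 0.000151). It was under 10 FPKM in JF64 alone, so it entered the set through the lower group. NONGGAT008109.2 (chr6:16068358-16103128, 1229 nt) had 13.3, 18.3 and 22.7 FPKM in JH hens and 6.87, 8.71 and 9.87 FPKM in JF hens, a log2 fold change of 1.02 ± 0.13. It, too, entered through the lower group, as only JF hens were under 10 FPKM. The widest difference upwards was that of NONGGAT006839.2 (chr4:29384846-29387450, 1413 nt), with 4.06, 8.90 and 14.02 FPKM in JH hens and 1.71, 2.39 and 3.003 FPKM in JF hens, a log2 fold change of 1.86 ± 0.26. NONGGAT000917.2 (chr1:106378010-106379228, 767 nt) had 8.62, 9.80 and 14.1 FPKM in JH hens and 2.99, 4.26 and 6.07 FPKM in JF hens, a log2 fold change of 1.17 ± 0.20. NONGGAT000097.2 (chr1:13787271-13788029, 617 nt) and NONGGAT000095.2 (chr1:13782352-13787434, 4134 nt) overlap on the genome. The 617 nt transcript had 3.25, 4.88 and 8.35 FPKM in JH hens and 1.62, 2.01 and 2.58 FPKM in JF hens, and the 4134 nt transcript 2.53, 3.67 and 5.65 FPKM in JH hens and 1.66, 1.94 and 2.29 FPKM in JF hens. In all 6 the prefixes did not overlap.

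Lower in JH hens, and with the smallest p of all 851, was NONGGAT007294.2 (chr4:84898394-84902173, 2306 nt). JH hens had a lowest value of 4.30, a median of 5.03 and a highest of 6.59 FPKM, and JF hens 9.07, 12.1 and 13.1 FPKM, a log2 fold change of -1.25 ± 0.13 (SE; edgeR adjusted p = 5.6e-05). NONGGAT001014.2 (chr1:117649914-117660623, 898 nt) had 2.24, 3.85 and 5.56 FPKM in JH hens and 7.24, 9.08 and 9.90 FPKM in JF hens, a log2 fold change of -1.33 ± 0.18. For NONGGAT001470.2 (chr1:194822725-194824389, 1150 nt) these were 4.11, 7.27 and 11.2 FPKM in JH hens and 17.0, 20.4 and 31.1 FPKM in JF hens, a log2 fold change of -1.65 ± 0.23. Again no hen of 1 prefix fell among those of the other. NONGGAT001470.2 was under 10 FPKM in JH hens only, so it entered the set through the lower group. NONGGAT005158.2 (chr23:2801183-2807516, 666 nt) had 1.90, 2.10 and 3.54 FPKM in JH hens and 4.13, 6.04 and 7.86 FPKM in JF hens. NONGGAT004108.2 (chr2:62316996-62317865, 387 nt) changed most of the 69, with 2.18, 2.95 and 4.44 FPKM in JH hens and 6.17, 11.2 and 17.0 FPKM in JF hens, a log2 fold change of -1.86 ± 0.28. NONGGAT004784.2 (chr20:11553169-11554089, 655 nt) had 1.55, 2.27 and 2.57 FPKM in JH hens and 3.64, 4.24 and 5.73 FPKM in JF hens, a log2 fold change of -1.15 ± 0.18. These 12 kept their direction and an adjusted p of at most 0.05 under all 20 other settings tried on single lncRNAs, which 32 of the 69 did.

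**Figure D4:**
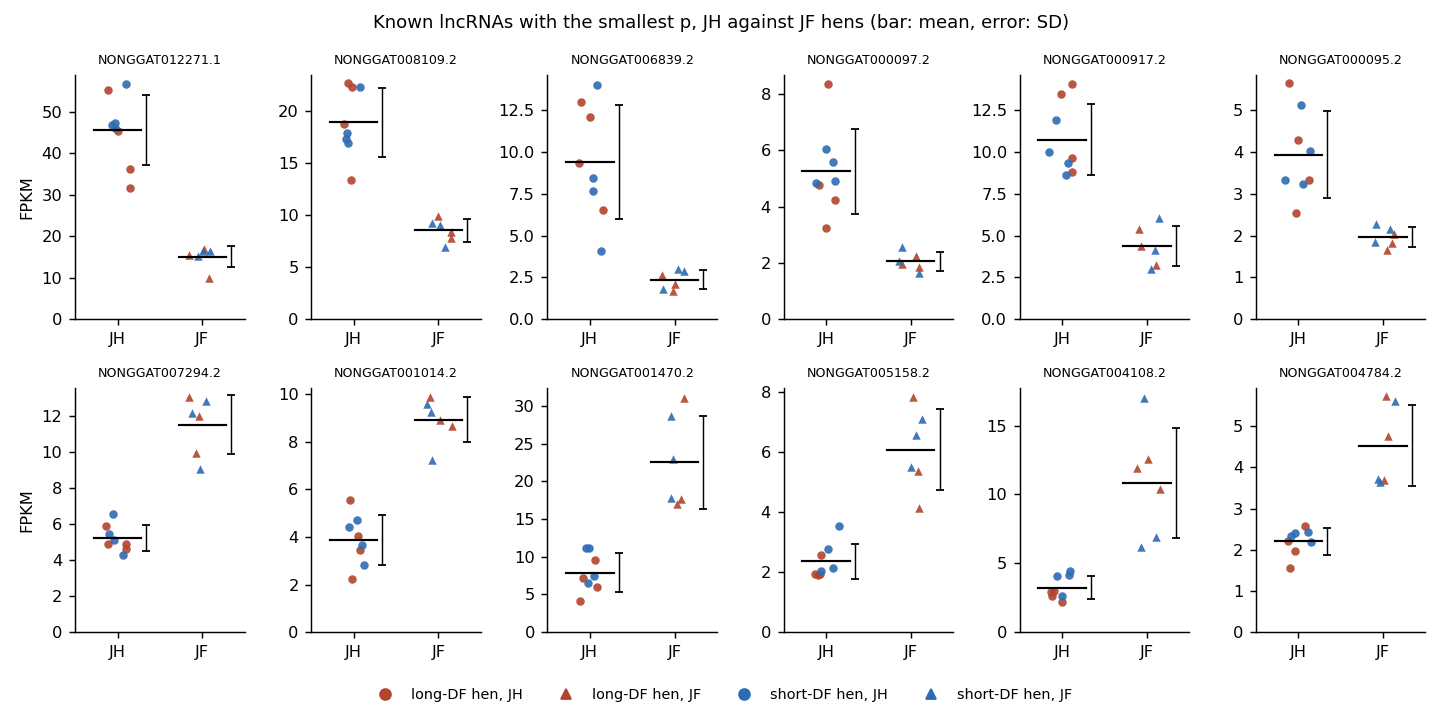
FPKM of the 6 lncRNAs with the smallest p among those higher in JH hens (upper row) and of the 6 among those lower in JH hens (lower row), JH hens left and JF hens right, red for long-DF and blue for short-DF hens. Bars are means and error bars SDs over 8 JH and 6 JF hens, and in every panel the lowest hen of the higher prefix lies above the highest hen of the other.

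The 69 were spread over 22 chromosomes and 65 loci. The share called was 9.83% on chromosomes 1 to 5, 6.88% on chromosomes 6 to 10 and 6.89% on chromosomes 11 to 33, and among all lncRNAs tested there, outside chromosomes 16, Z and W, it was 6.95%, 6.68% and 6.17%. Chromosome 1 held 16 of the 69, which is 14.3% of the 112 of the 851 on it, against 8.97% of all tested on it. No test was made of these differences. By length, 6.14% were called at under 500 nt, 8.63% at 500 to under 1000 nt, 7.37% at 1000 to under 2000 nt and 13.2% at 2000 nt or more, and in all lncRNAs tested these shares were 5.16%, 7.03%, 7.53% and 11.5%. The median SE of the log2 fold change was 0.23, 0.22, 0.19 and 0.15 in these classes of the 851, so that smaller changes could pass in the longer ones. Below a mean of 10 fragments per hen 2 of 126 were called (1.59%), against 4.98% of all tested in that class, and at 100 or more 15 of 90 (16.7%), against 14.8%. Among called ones that lay within 100 kb of each other there were 4 pairs, all of overlapping transcripts, and in each pair both moved the same way. Besides NONGGAT000095.2 and NONGGAT000097.2 these were NONGGAT001014.2 with NONGGAT001015.2 (log2 fold changes -1.33 and -1.13), NONGGAT005808.2 with NONGGAT005810.2 (-1.49 and -1.15) and NONGGAT005934.2 with NONGGAT014644.1 (-0.92 and -0.95). The transcripts of a pair overlap in part, and how fragments of the shared stretch were divided between them is not known.

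Neighbours on the genome followed each other over the hens only at short range. Over the 14 hens the correlation of log2 CPM had a median of 0.19 for 92 overlapping pairs among the 851, 0.23 for 71 pairs apart by up to 10 kb and 0.11 for 199 pairs apart by 10 to 100 kb. It was 0.02 for 1043 pairs apart by 100 kb to 1 Mb, 0.00084 for 18347 pairs apart by over 1 Mb and 0.0014 for 341923 pairs on different chromosomes. A correlation over 0.8 was found in 5.43% of the overlapping pairs, in 11.3% of the pairs apart by up to 10 kb, in 11.1% of those apart by 10 to 100 kb and in 0.155% of those on different chromosomes. These are descriptions, since pairs share hens, libraries and transcripts.

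The likeness at 10 to 100 kb came largely from 1 stretch of chromosome 24, between 2777372 and 2900262, which was singled out after its values were seen. It held 18 known lncRNAs, of which 9 belonged to the 851. These 9, in 7 loci, were NONGGAT005240.2 to NONGGAT005247.2 and NONGGAT005255.2, and their 36 pairs had correlations of 0.70 to 0.98, with a median of 0.89. Without these pairs the median was 0.17 for overlapping pairs, 0.20 for pairs apart by up to 10 kb and 0.05 for pairs apart by 10 to 100 kb. NONGGAT005244.2 (476 nt) is an example, with 15.2, 2.65, 41.0, 12.95, 6.83, 10.7 and 14.9 FPKM in the long-DF hens JH14, JH25, JH95, JH104, JF25, JF61 and JF64. In the short-DF hens JH49, JH68, JH109, JH130, JF21, JF40 and JF56 it had 5.70, 19.1, 16.9, 26.8, 12.9, 6.41 and 7.71 FPKM. JH95 and JH130 were highest, and JH25 was lowest. Relative to each transcript's own geometric mean, the 9 stood on average at 2.64 times in JH95 and 2.50 times in JH130, at 0.265 times in JH25 and at 0.517 times in JF25. JH130 was among the 3 highest hens for all 9 and JH25 among the 3 lowest for all 9. JH49 and JF40, both short-DF hens, stood at 0.574 and 0.641 times, so high and low hens came from both DF groups. JH68, JH109 and JH14 stood at 1.66, 1.48 and 1.41 times, and the highest JF hen, JF21, at 1.12 times. The high end was thus held by JH hens, although none of the 9 was called in any comparison. The longest of them, NONGGAT005247.2, carried a mean of 724 fragments per hen, the most of the 851, with 5.45 FPKM in JH25 and 27.3 FPKM in JH95. The known lncRNAs of the stretch outside the 851 all overlap it, and their correlations with the mean of the 9 were 0.31 to 0.80. How fragments were divided among these overlapping transcripts is not known. Within JH hens the median correlation of the 9 was 0.96 and within JF hens 0.76, and without JH25, JH95 and JH130 it was 0.79.

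**Figure D5:**
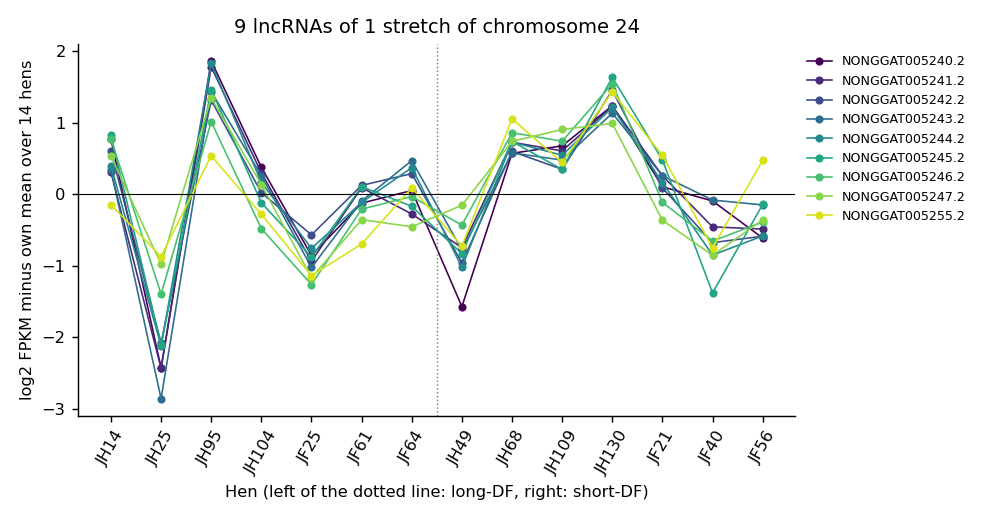
The log2 FPKM of 9 lncRNAs of chromosome 24, less each one's own mean over 14 hens, is drawn for each hen, with long-DF hens left and short-DF hens right of the dotted line. All 9 lines dip in JH25 and peak in JH95 or JH130.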

How the data were processed

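One library was made per hen, without pooling, from the UVJ of 7 long-DF and 7 short-DF hens. Before the files were deposited, the authors aligned reads with TopHat to the Galgal4 genome, assembled transcripts with StringTie, classed them with Gffcompare and kept lncRNAs by filters on level, length, exons and coding potential (CNCI, CPC and Pfam). The deposited table holds, for each lncRNA and hen, a raw count of fragments and the FPKM value the authors derived from such counts. The tool that counted fragments, and whether it used strand, are not given in the sources used here. The mRNA, qPCR and read data were not used here, and the annotation of unknown lncRNAs served only to find overlaps. The files used give no strand or exons for known lncRNAs, and no sequence is shown for them.

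The library total behind the FPKM of a hen was computed from counts, lengths and FPKM. Counts were tested with edgeR 4.0.16 (glmQLFit and glmQLFTest, TMM, limma 3.58.1) in R 4.3.3, over the 6887 of 9977 lncRNAs that reached 0.1 FPKM in 7 or more hens, with Benjamini-Hochberg adjustment over all of them. The comparisons were long-DF against short-DF in all hens, in JH hens and in JF hens, JH against JF with the DF group as covariate, and the interaction. The test script was checked on simulated data. Totals were compared with exact permutation tests (numpy 2.4.6, Python 3.11.15). Spearman correlations were computed with scipy 1.17.1. Other settings used DESeq2 1.42.0, other filters, scales and covariates, summed overlapping transcripts, and each hen left out.

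Named lncRNAs were those with the smallest p in each direction of each comparison (6 for JH against JF, otherwise 3), the 5 lowest and highest in CV, the 3 shortest and longest, the 3 highest and lowest in median level, the 3 on either side of each limit, the transcripts of the fullest locus, and the 10 highest in median level from sources other than NONCODE. RefSeq entries, the chromosome 24 stretch, pairs of called neighbours and transcripts with a single low hen were added after their values were seen. The lncRNAs and lists were chosen with earlier results of these data known. Hens are separate animals. SEs were computed from the log2 fold change and the F statistic of the edgeR test.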

Additional observations from a re-analysis of the deposited data

Results flagged for a closer look

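Among 7 hens of a DF group, a single hen stood apart by Dixon's 95% limit in 11 of 142 sets of values examined. Chance gives about 1 in 20 in sets not chosen for their values, but many of these lncRNAs were named for a wide spread, a small p, a value near a limit or a single low hen, so that rate does not apply and the values are a description. Each is given beside the nearest hen of its group. JH25 was highest of the long-DF hens for NONGGAT002695.2 (40.1 FPKM, next 10.3) and for NONGGAT002504.2 (3.26 FPKM, next 2.66). JH14 was highest of the long-DF hens for NONGGAT000319.2 (22.5 FPKM, next 14.4) and for NONGGAT014529.1 (2.08 FPKM, next 1.43), and JH104 for NONGGAT004659.2 (4.59 FPKM, next 3.56). JH49 was highest of the short-DF hens for NONGGAT000991.2 (33.6 FPKM, next 17.4) and for NONGGAT002504.2 (3.34 FPKM, next 2.16). JF21 was highest of the short-DF hens for NONGGAT004108.2 (17.02 FPKM, next 6.93), although the JF hens of both groups lay above all JH hens for this lncRNA. JF40 was highest of the short-DF hens for NONGGAT007182.2 (15.0 FPKM, next 10.4), one of the shortest of the 851. JF21 was lowest of the short-DF hens for NONGGAT011255.2 (1.64 FPKM, next 20.9) and JF56 for NONGGAT000116.2 (4.20 FPKM, next 12.3).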

How the results depend on the processing

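None of the 851 was called by long-DF against short-DF, in all, JH or JF hens, or by the interaction, under any alternative run, which say little of small effects at 3 or 4 hens a group. The number of members by the rule hung on the floor and was 1302 at a floor of 0.5 FPKM and 519 at 2 FPKM, against 851. Between JH and JF hens, leaving out each hen gave 42 to 63 called, against 69 with all hens. The 5 hens that moved it by over 1.5 times were JF25, JF61, JF64, JF21 and JF56. DESeq2 gave 83 called (9.75%, against 7.68% of all tested), no filter on low values 50 (5.88% against 4.20%), no covariate 71 (8.34% against 7.33%), median-ratio size factors 69 (8.11% against 6.91%) and library totals 65 (7.64% against 6.91%). With a filter at 0.5 FPKM 78 were called, or 9.17%, no more than the 9.23% of all tested. With counts summed over overlapping transcripts 80 of 776 loci were called (10.3%, against 10% of all loci tested), 44 higher and 36 lower in JH hens. A total of 32 of the 69 were called under all 20 settings on single lncRNAs, and all 69 kept their sign. With the thresholds of the study, 1 lncRNA was called without JF40 and 0 under the other settings. On CPM in place of FPKM the median CV was 27.1%, and 1 transcript per locus gave a median length of 721 nt. The settings for the chromosome 24 stretch and for the CV within a prefix were chosen after seeing the data. No paired analysis was possible because the hen numbers of the groups are those of different animals. Below 10 fragments a hen, where 126 of the 851 lay, counting limits what can be seen. Changes of overlapping transcripts cannot be fully told apart, as how their shared fragments were divided is not known.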
